A study of Rattus norvegicus with 16 samples.

Results

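The response to 3 days of hypoxia was compared between neuroblasts and glomus cells sorted from the rat carotid body, probe by probe, to find where the populations responded differently. The measure was the difference between hypoxic and normoxic neuroblasts minus the difference between hypoxic and normoxic glomus cells, called the interaction here and given on the log2 scale. A positive interaction means that the neuroblast value went up more, or down less, than the glomus cell value. All 16 arrays of the series entered, in 4 groups of 4, with all 30429 probes. The interaction passed the test (limma, adjusted p under 0.05 over all probes) for 24 probes, or 0.0789% of those tested, 8 of them positive (0.0263%) and 16 negative (0.0526%). Exactly 1 gene was named for 18 of the 24, several genes for 1 and none for 5. After each array was centred on its median 11 passed, with 0 positive and 11 negative, and after quantile normalization 29 passed, with 15 positive and 14 negative.

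The carotid body senses the oxygen of arterial blood. Its glomus cells are neuron-like chemoreceptor cells that release transmitter when oxygen falls, partly because hypoxia closes background potassium channels of the TASK family. During sustained hypoxia the organ grows, and HNK-1 positive neuroblasts, which are immature cells of the same sympathoadrenal lineage, are known as a source of new glomus cells.

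Wistar rats aged 9 to 11 weeks breathed ambient air (normoxia) or lived in hypoxic chambers for 3 days. Both carotid bodies were mixed and dispersed with enzymes, and flow cytometry with an HNK-1 antibody sorted HNK-1+ cells as neuroblasts and HNK-1- cells as glomus cells. The 4 groups were therefore normoxic glomus cells, hypoxic glomus cells, normoxic neuroblasts and hypoxic neuroblasts, all of the same strain, and 500 pg of total RNA per sample was converted to cDNA for an Affymetrix array. The sort gate rests on 1 surface epitope, so the HNK-1- fraction can hold other cells that lack it, and the HNK-1+ fraction others that carry it. Whether replicates are separate animals is not in the labels, so p-values measure the spread between these samples, which may be technical. No label gives an array batch, so a batch that followed oxygen condition or population could not be told apart from them.

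Array medians were 4.40 to 4.94 (log2) over the 16 arrays. The interquartile range was 2.99 to 3.31 in the normoxic arrays and 2.15 to 2.86 in the hypoxic ones. Hypoxic neuroblast replicate 1 had the lowest interquartile range, 2.15, and its values correlated least with those of its own group (mean r = 0.914). Without it 25 probes passed for the interaction, 17 of them among the original 24, with 13 positive and 12 negative. Array weights gave hypoxic neuroblast replicate 1 the lowest weight, 0.192, and 83 probes passed with them. The count changed more when some other arrays were left out. It was 11 without normoxic glomus replicate 2 or without normoxic neuroblast replicate 4, 12 without normoxic glomus replicate 3 or 4, and 13 without hypoxic glomus replicate 2 or 4. It was 35 without normoxic neuroblast replicate 3.

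The populations were checked against their defining genes. In normoxia the glomus cell genes Slc18a1 (vesicular monoamine transporter), Chga (chromogranin A) and Cox4i2 (an oxygen-sensitive cytochrome oxidase subunit) were lower in neuroblasts (neuroblasts minus glomus cells, -2.02, -1.26 and -1.19). The immature neuron genes Rbfox1, Tubb2b, Stmn2 and Sox4 were higher in neuroblasts, by 4.33, 2.17, 1.52 and 1.44. Th, which encodes tyrosine hydroxylase, the first enzyme of catecholamine synthesis, was high in both populations, at 12.62 in normoxic glomus cells and 12.30 in normoxic neuroblasts, and did not pass between them (adjusted p = 0.972). Ddc, Epas1 and Ncam1 did not pass either. Among these markers, Rbfox1 alone still passed between the populations in hypoxia, at 2.51 (adjusted p = 0.000702). The interaction passed for none of the markers named so far, but it did for Kcnk3, a further glomus cell marker (1.60, adjusted p = 0.0462). Kcnk3 differed between neuroblasts and glomus cells by -1.74 in normoxia and by -0.14 in hypoxia. Without hypoxic neuroblast replicate 1 the interaction of Slc18a1 also passed in limma (adjusted p = 0.0024). B3gat1 encodes an enzyme that makes the HNK-1 epitope used for the sort. It was 1.36 higher in neuroblasts in normoxia (adjusted p = 0.0197) and 0.31 higher in hypoxia (adjusted p = 0.72). Its interaction of -1.05 ± 0.42 did not pass (adjusted p = 0.682).

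The responses overlapped widely. Between normoxia and hypoxia 5744 probes passed in glomus cells (18.9%) and 9755 in neuroblasts (32.1%). Upward calls were 9.37% of all probes in glomus cells and 18.4% in neuroblasts, and downward calls 9.5% and 13.7%. A total of 4458 passed in both in the same direction, 77.6% of the glomus cell calls and 45.7% of the neuroblast calls. Only 5 passed in opposite directions. Normoxic and hypoxic samples did not overlap for 26.4% of all probes in glomus cells and 28% in neuroblasts. For the called genes described below, such separation rests on the same values as the call and adds no evidence. Across probes, which are not independent replicates, the hypoxia differences of the populations correlated at 0.807, also without hypoxic neuroblast replicate 1. These comparisons share no sample. The interaction had a median of 0.05 and quartiles of -0.20 and 0.27. Its median standard error was 0.32, and the smallest interaction that passed had a size of 1.41, so the number of arrays limits what could be detected. At an unadjusted p under 0.05 there were 2015 probes (6.62%), 942 positive (3.1%) and 1073 negative (3.53%). The response varied with brightness. In sets ordered by normoxic level the median interaction was 0.10, 0.12, 0.05 and -0.13 from dimmest to brightest. The median hypoxia difference in the dimmest set (7612 probes) was 0.21 in glomus cells and 0.31 in neuroblasts. In the brightest set (7607 probes) it was -0.33 and -0.53. The hypoxic arrays also had narrower interquartile ranges than the normoxic ones in both populations. How much of the overlap and of the correlation goes with brightness or range was not tested.

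**Figure D1:**
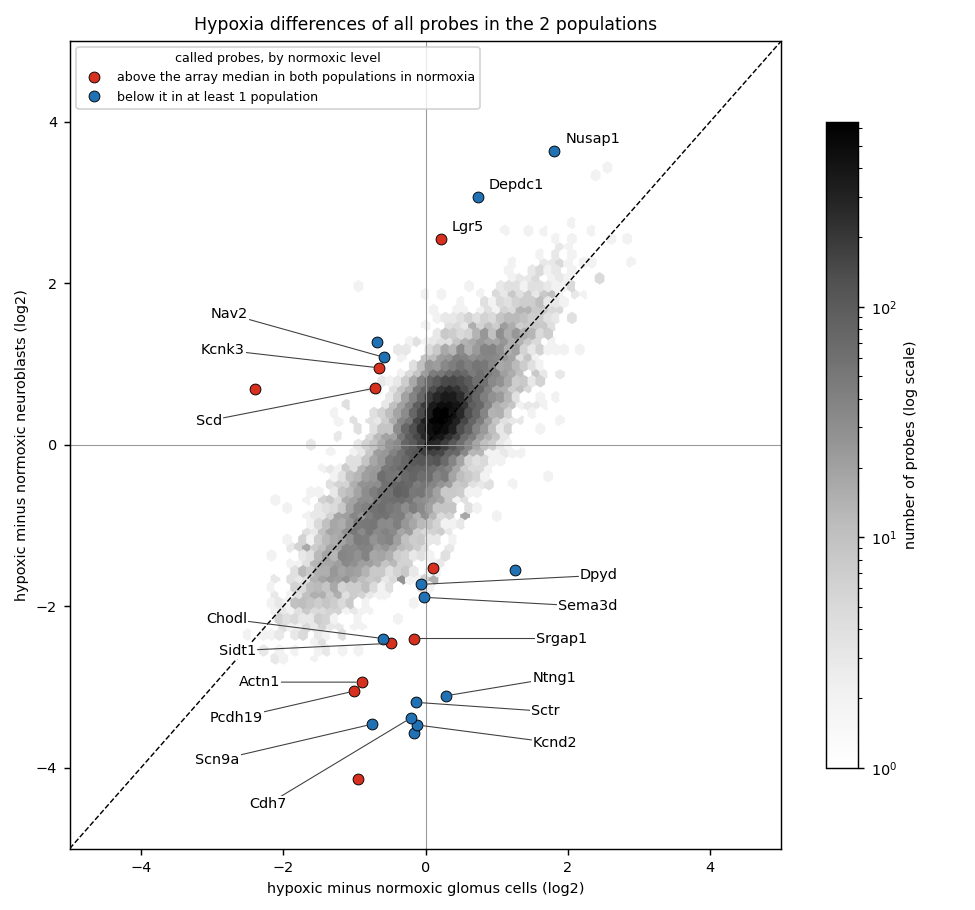
Hypoxia difference in glomus cells (x axis, log2) and in neuroblasts (y axis, log2) for all 30429 probes, shaded by the number of probes, with the 24 probes that passed for the interaction as coloured points and gene names where 1 gene is named. The cloud follows the diagonal (r = 0.807 across probes); the point of Ntng1, at 0.28 and -3.11, lies far below it and that of Lgr5, at 0.22 and 2.55, far above.

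The 12 named genes with a negative interaction had their highest level in normoxic neuroblasts. All 12 fell in hypoxic neuroblasts, with folds from 3.31 for Dpyd to 11.1 for Kcnd2. In glomus cells Pcdh19, Actn1 and Chodl also fell, and the other 9 did not pass. Because RNA from sorted pools of cells was measured, fewer cells with a transcript and less transcript per cell cannot be told apart.

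Ntng1 encodes netrin-G1, a membrane-anchored adhesion protein of axons and synapses. Its signal was 5.74, 5.99, 5.43 and 6.57 in the 4 normoxic neuroblast samples and 2.68, 2.91, 2.78 and 2.94 in the hypoxic ones. Glomus cells gave 2.90, 2.43, 2.63 and 3.06 in normoxia and 2.77, 2.78, 3.35 and 3.24 in hypoxia. Normoxic neuroblasts lay above all other samples, and the 3 other groups overlapped. Ntng1 fell by 3.11 ± 0.23 (SE) in neuroblasts, 8.60-fold, and differed by 0.28 ± 0.23 in glomus cells, an interaction of -3.39 ± 0.32 (adjusted p = 0.000166). The 95% interval of the interaction ran from -4.06 to -2.71.

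Kcnd2, Scn9a and Sctr followed the same order. Kcnd2 encodes Kv4.2, the pore of a fast-inactivating (A-type) potassium channel. Its signal was 8.02, 8.38, 8.09 and 8.56 in normoxic neuroblasts and 3.70, 5.05, 4.88 and 5.53 in hypoxic ones, against 3.61 to 4.52 in the 8 glomus cell samples. The neuroblast groups did not overlap, and 3 of the 4 hypoxic neuroblast samples stayed above every glomus cell sample. The interaction was -3.36 ± 0.42 (adjusted p = 0.00292), and -2.99 without hypoxic neuroblast replicate 1. Scn9a encodes the voltage-gated sodium channel Nav1.7. It read 9.02, 7.84, 8.26 and 8.51 in normoxic neuroblasts and 5.63, 4.63, 4.38 and 5.14 in hypoxic ones. In glomus cells it was at 4.46, 4.10, 3.79 and 4.48 in normoxia and 3.86, 3.50, 3.45 and 3.02 in hypoxia. No neuroblast group overlapped the other, and the glomus cell groups overlapped by 1 sample of each. Scn9a fell 11.0-fold in neuroblasts and differed by -0.75 ± 0.29 in glomus cells (adjusted p = 0.0786), an interaction of -2.71 ± 0.41 (adjusted p = 0.012). Sctr, the receptor for the gut and brain peptide secretin, was at 7.63, 8.03, 7.55 and 8.12 in normoxic neuroblasts and 3.80, 4.77, 5.27 and 4.73 in hypoxic ones. Its glomus cell samples lay between 4.15 and 5.10, so hypoxic neuroblasts overlapped them. The interaction of Sctr was -3.05 ± 0.38 (adjusted p = 0.00282).

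Cdh7, Sema3d, Chodl and Dpyd were also high in normoxic neuroblasts only. Cdh7, a classical type II cadherin, was at 6.57, 7.78, 7.80 and 7.88 in normoxic neuroblasts and 4.52, 4.22, 3.73 and 4.04 in hypoxic ones, with glomus cells at 3.69 to 4.73. It fell 10.4-fold in neuroblasts, with an interaction of -3.18 ± 0.42 (adjusted p = 0.00398). Sema3d encodes a secreted semaphorin, an axon guidance cue. It was at 5.0, 5.31, 5.84 and 5.92 in normoxic neuroblasts and 3.35, 3.25, 4.10 and 3.79 in hypoxic ones, with glomus cells at 3.30 to 4.06. The interaction of -1.87 ± 0.34 (adjusted p = 0.0463) no longer passed on leaving out any 1 of 13 arrays or after centring or quantile normalization. Chodl encodes chondrolectin, a membrane C-type lectin. It was at 5.70, 5.97, 6.11 and 5.38 in normoxic neuroblasts and 3.23, 3.40, 3.35 and 3.57 in hypoxic ones. In glomus cells it fell too, from 4.53, 4.10, 4.15 and 4.04 to 3.44, 3.59, 3.42 and 3.95, with no overlap in either population. The fall was 5.29-fold in neuroblasts and 1.52-fold in glomus cells, an interaction of -1.80 ± 0.26 (adjusted p = 0.012). Dpyd, the first enzyme of pyrimidine breakdown, was at 6.30, 6.09, 5.57 and 5.98 in normoxic neuroblasts and 4.13, 4.70, 4.00 and 4.20 in hypoxic ones, against 3.29 to 4.01 in glomus cells. Its interaction of -1.66 ± 0.29 (adjusted p = 0.0462) no longer passed on leaving out any 1 of 12 arrays or with a replicate block.

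A limit applies to these 8 genes. Their normoxic glomus cell means lay below the array median, so a fall as large as that of the neuroblasts may not be measurable there. For Ntng1, Kcnd2 and Scn9a such a fall would end below the lowest value in the table, 0.87. For Cdh7 it would end at 0.88. That lowest value is taken over all probes and is not the floor of each probe. The probes were therefore divided by whether the normoxic mean lay above the mean of the array medians (4.51 in glomus cells, 4.52 in neuroblasts). Of 679 probes above it in neuroblasts only, 10 passed (1.47%), all negative. Of 649 above it in glomus cells only, 1 passed (0.154%), and of 14549 below it in both, 3 passed (0.0206%), all positive. Of the 14552 probes above it in both, 10 passed (0.0687%), 4 positive and 6 negative. Srgap1, at 4.73 in normoxic glomus cells, was just inside this last class, and Sctr, at 4.48, just outside. Among the probes above the median in both populations 3 passed after centring, 19 after quantile normalization and 17 when the mean over all arrays set the class. Without normoxic neuroblast replicate 3 the count was 21, and it was 4 to 6 without normoxic glomus replicate 2, 3 or 4, normoxic neuroblast replicate 4, or hypoxic glomus replicate 2 or 4.

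In that measurable class 4 named genes had a negative interaction. Sidt1, a SID1 family transmembrane protein, was at 7.94, 7.85, 8.12 and 8.76 in normoxic neuroblasts and 5.50, 5.83, 5.89 and 5.62 in hypoxic ones. Glomus cells gave 4.79, 4.80, 5.25 and 5.32 in normoxia and 4.50, 4.47, 4.96 and 4.27 in hypoxia. Hypoxic neuroblasts lay between normoxic neuroblasts and all glomus cell samples, and 1 hypoxic glomus cell sample overlapped the normoxic ones. The interaction was -1.97 ± 0.30 (adjusted p = 0.0151), and without normoxic glomus replicate 2 it no longer passed (adjusted p = 0.0546). Srgap1 encodes a GTPase-activating protein that acts downstream of Slit and Robo. It was at 7.88, 6.58, 7.06 and 7.45 in normoxic neuroblasts and 4.86, 4.94, 4.52 and 5.05 in hypoxic ones, where it overlapped the glomus cells at 4.34 to 4.94. Its interaction was -2.22 ± 0.33 (adjusted p = 0.012).

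Actn1 and Pcdh19 fell in both populations, more in neuroblasts. Actn1 encodes alpha-actinin-1, which cross-links actin filaments. It was at 10.32, 9.94, 10.36 and 10.60 in normoxic neuroblasts and 6.74, 6.99, 7.56 and 8.16 in hypoxic ones, and went from 8.89, 8.32, 8.87 and 8.65 to 7.94, 7.77, 7.53 and 7.89 in glomus cells. Normoxic and hypoxic samples did not overlap in either population, and the populations overlapped after hypoxia. The fall was 7.69-fold in neuroblasts and 1.87-fold in glomus cells (interaction -2.04 ± 0.36, adjusted p = 0.0462). Pcdh19 encodes a protocadherin, a homophilic adhesion protein of neurons. It was at 7.93, 7.51, 7.75 and 8.09 in normoxic neuroblasts and 4.61, 4.44, 5.25 and 4.77 in hypoxic ones, and went from 6.18, 5.30, 6.45 and 5.54 to 5.16, 5.0, 4.33 and 4.97 in glomus cells. The fall was 8.30-fold in neuroblasts and 2.00-fold in glomus cells (interaction -2.05 ± 0.37, adjusted p = 0.0463). Both calls are close to the threshold. The call of Actn1 was lost on leaving out any 1 of 13 arrays and that of Pcdh19 any 1 of 11. Both were lost after centring, and that of Pcdh19 with a replicate block.

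**Figure D2:**
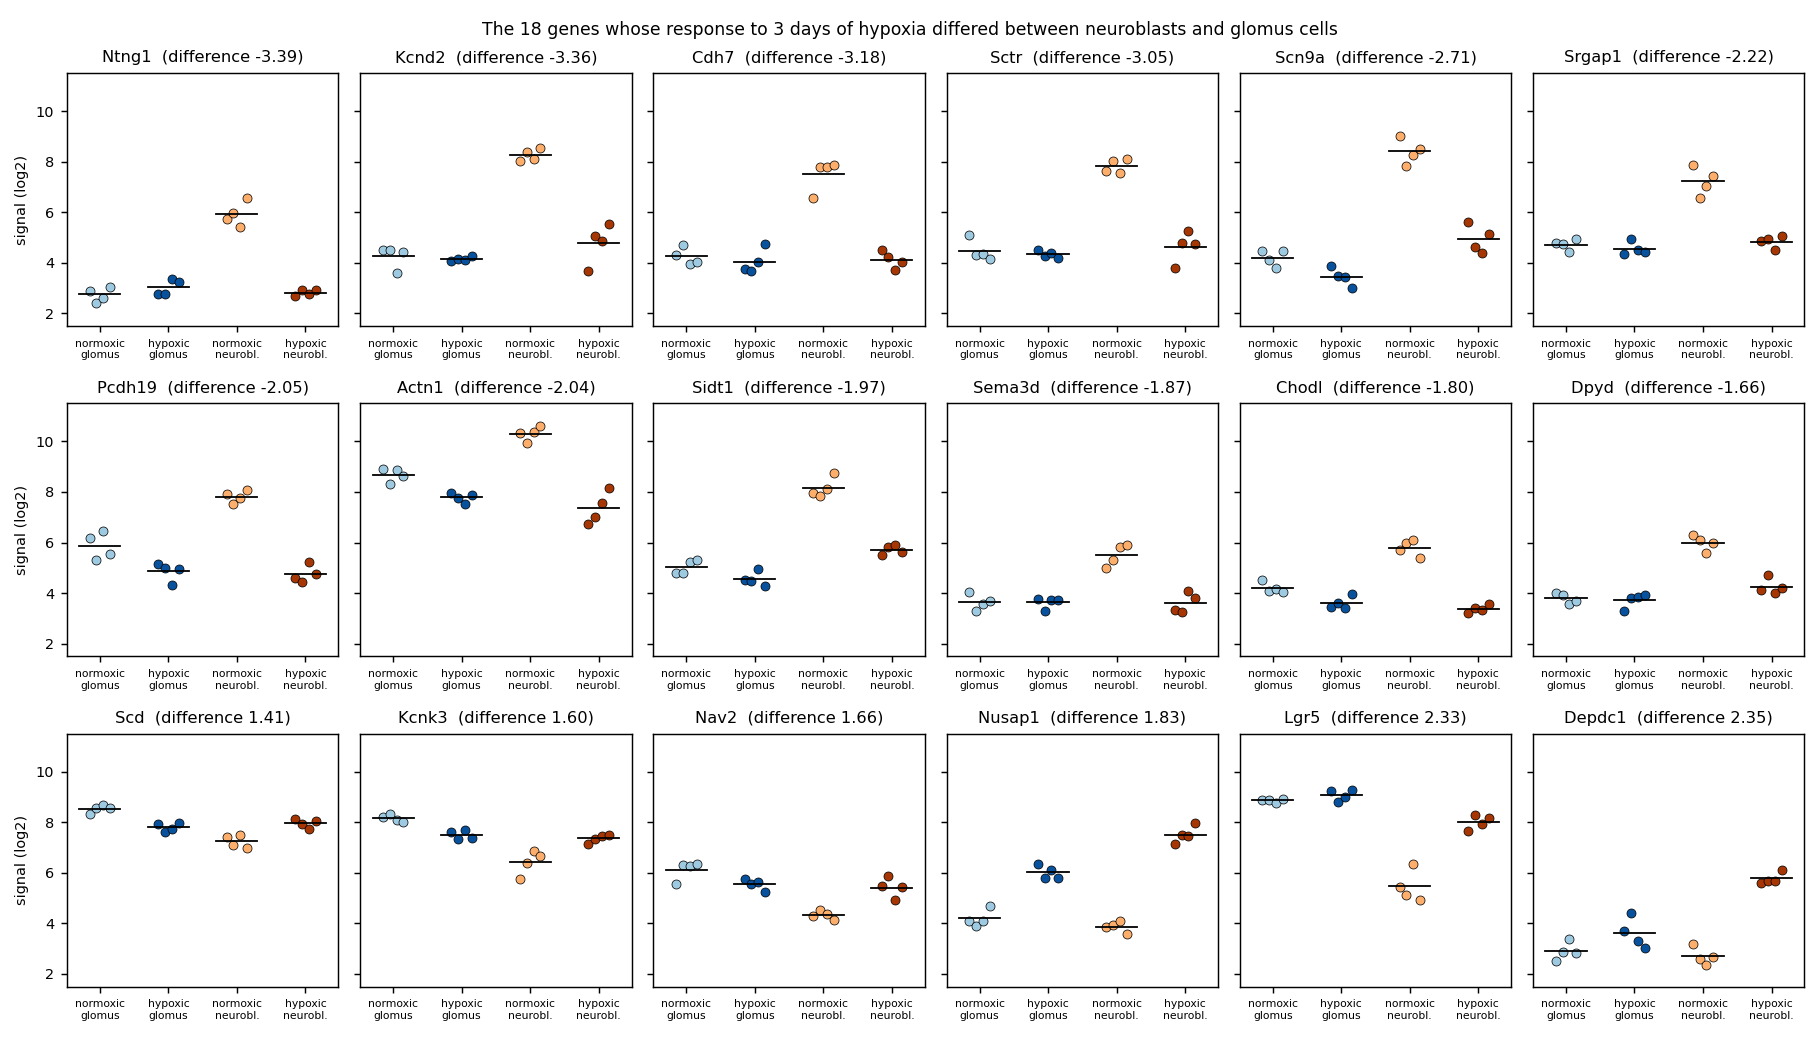
Signal (log2) of the 18 named genes that passed for the interaction in every array, as points, with group means as bars. The 12 genes in the top rows are highest in normoxic neuroblasts; Lgr5, Kcnk3, Scd and Nav2 are lowest there, and Nusap1 and Depdc1 are highest in hypoxic neuroblasts.

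The 6 named genes with a positive interaction fell into 3 patterns. Lgr5 rose in neuroblasts with no call in glomus cells. Kcnk3, Scd and Nav2 rose in neuroblasts while the glomus cell value was lower in hypoxia. Nusap1 and Depdc1, genes of dividing cells, went from low levels to their highest in hypoxic neuroblasts. In normoxia the means of Nusap1 and Depdc1 lay below the array median in both populations, and that of Nav2 in neuroblasts (4.33). The hypoxic glomus cell mean of Depdc1, 3.62, was still below that group's mean array median, 4.72. Folds from such levels may not be fully measurable.

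Lgr5 encodes a receptor for R-spondins that amplifies Wnt signalling and marks stem cells in several epithelia. In glomus cells it was already high, at 8.86, 8.88, 8.77 and 8.92 in normoxia and 9.24, 8.80, 8.99 and 9.29 in hypoxia. In neuroblasts it was at 5.45, 5.12, 6.36 and 4.92 in normoxia and 7.64, 8.30, 7.94 and 8.18 in hypoxia. Hypoxic neuroblasts lay above all normoxic neuroblasts and below all glomus cell samples. The rise was 5.87-fold in neuroblasts, and the glomus cell difference was 0.22 ± 0.25 (adjusted p = 0.563). The interaction was 2.33 ± 0.35 with a 95% interval of 1.59 to 3.07 (adjusted p = 0.0123). It passed in all 16 fits that left out 1 array but missed the threshold after centring, at 2.26 (adjusted p = 0.0533).

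Kcnk3 and Scd were among the 5 probes that passed in opposite directions. Kcnk3 encodes TASK-1, a background potassium channel that hypoxia closes in glomus cells. It was at 8.21, 8.31, 8.08 and 7.99 in normoxic and 7.60, 7.33, 7.67 and 7.38 in hypoxic glomus cells, and at 5.76, 6.37, 6.84 and 6.66 in normoxic and 7.14, 7.33, 7.47 and 7.49 in hypoxic neuroblasts. The groups did not overlap within either population, as for 26.4% of all probes in glomus cells and 28% in neuroblasts. Hypoxic glomus cells and hypoxic neuroblasts overlapped. Kcnk3 fell 1.57-fold in glomus cells (adjusted p = 0.0299) and rose 1.93-fold in neuroblasts (adjusted p = 0.00184), an interaction of 1.60 ± 0.28 (adjusted p = 0.0462). That call was lost on leaving out any 1 of 13 arrays, after centring, with an intensity trend and with a replicate block, and the value ran from 1.39 to 1.75 over all alternatives. Scd encodes stearoyl-CoA desaturase, which makes monounsaturated fatty acids. It went from 8.32, 8.54, 8.67 and 8.54 to 7.91, 7.63, 7.73 and 7.96 in glomus cells and from 7.40, 7.10, 7.51 and 6.99 to 8.11, 7.93, 7.73 and 8.03 in neuroblasts. Again no groups overlapped within a population, and the hypoxic groups overlapped each other. The changes were -0.71 ± 0.16 in glomus cells and 0.70 ± 0.16 in neuroblasts (interaction 1.41 ± 0.23, adjusted p = 0.023). Leaving out any 1 of 6 arrays, centring or a replicate block ended the call. The other probes with opposite calls were that of RT1-O1, a gene of the major histocompatibility complex, whose interaction of 1.48 ± 0.28 did not pass (adjusted p = 0.0614), and 2 probes with no gene name.

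Nav2, a neuron navigator that binds the cytoskeleton, had the weakest call. It was at 5.57, 6.29, 6.26 and 6.33 in normoxic and 5.75, 5.54, 5.62 and 5.23 in hypoxic glomus cells, and at 4.29, 4.54, 4.36 and 4.14 in normoxic and 5.46, 5.86, 4.91 and 5.43 in hypoxic neuroblasts. The neuroblast groups did not overlap and the glomus cell groups did. The interaction was 1.66 ± 0.30 (adjusted p = 0.0478). The call was lost on leaving out any 1 of 14 arrays, after centring or quantile normalization, with an intensity trend and with a replicate block. The first probe beyond the threshold was that of Grik3, a kainate receptor subunit, at -2.60 ± 0.48 (adjusted p = 0.0578). Gpr139, an orphan G protein-coupled receptor, had an interaction of 3.10 ± 0.58 that did not pass (adjusted p = 0.0614), with means of 8.75 and 8.30 in glomus cells and 5.23 and 7.88 in neuroblasts.

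Nusap1 encodes a protein that bundles spindle microtubules in mitosis. Its signal was 4.10, 3.91, 4.08 and 4.70 in normoxic and 6.34, 5.78, 6.12 and 5.80 in hypoxic glomus cells. Neuroblasts gave 3.86, 3.95, 4.10 and 3.57 in normoxia and 7.12, 7.49, 7.44 and 7.98 in hypoxia. The normoxic groups overlapped, and in hypoxia every neuroblast sample lay above every glomus cell sample. Nusap1 rose 3.51-fold in glomus cells and 12.4-fold in neuroblasts, an interaction of 1.83 ± 0.30 (adjusted p = 0.0298). Depdc1 encodes a DEP domain protein of dividing cells. It was at 2.50, 2.88, 3.39 and 2.81 in normoxic and 3.71, 4.42, 3.31 and 3.04 in hypoxic glomus cells, and at 3.20, 2.60, 2.36 and 2.65 in normoxic and 5.61, 5.69, 5.69 and 6.11 in hypoxic neuroblasts. Hypoxic neuroblasts stood above all other samples. Depdc1 rose 8.41-fold in neuroblasts and differed by 0.73 ± 0.27 in glomus cells (adjusted p = 0.0715), an interaction of 2.35 ± 0.38 (adjusted p = 0.0237). Leaving out any 1 of 8 arrays ended the call of Nusap1 and any 1 of 6 that of Depdc1, and centring or a replicate block ended both.

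Nusap1 and Depdc1 moved together with other genes of cell division, so their promoters are shown. They are the RefSeq sequences of build GRCr8 from 250 bases before to 50 after the start site, Nusap1 at chr3:127057045-127057344 and Depdc1 at chr2:251343031-251343330, both on the plus strand. Capitals mark TTTGAA, the core of the cell cycle homology region, and CCAAT, the box bound by NF-Y, read on either strand, where they appear as TTCAAA and ATTGG.
Nusap1: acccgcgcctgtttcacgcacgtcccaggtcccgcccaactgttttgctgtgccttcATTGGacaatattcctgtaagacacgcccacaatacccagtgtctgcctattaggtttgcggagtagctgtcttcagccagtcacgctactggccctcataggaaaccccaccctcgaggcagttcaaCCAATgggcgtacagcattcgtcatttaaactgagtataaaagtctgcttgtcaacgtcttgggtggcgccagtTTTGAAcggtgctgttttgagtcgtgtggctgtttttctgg
Depdc1: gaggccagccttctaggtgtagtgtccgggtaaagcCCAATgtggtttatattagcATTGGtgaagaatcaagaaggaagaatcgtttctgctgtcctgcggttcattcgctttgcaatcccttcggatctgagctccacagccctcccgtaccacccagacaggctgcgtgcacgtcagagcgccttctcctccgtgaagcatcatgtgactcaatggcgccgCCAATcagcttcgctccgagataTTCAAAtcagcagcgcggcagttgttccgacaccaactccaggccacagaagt
Both promoters hold both motifs, which do not overlap each other there. In Depdc1 the TTTGAA match begins 3 bases before the start site, and in Nusap1 it lies just after the start. Of the 18 called genes with a name 14 had a promoter in the RefSeq table; Pcdh19, Kcnk3, Nav2 and Lgr5 had none. TTTGAA was in 4 of the 14, against 18.3% of all 33469 promoters of that length, and CCAAT in 5, against 37.5%. The hypoxia response core, searched as ACGTG or GCGTG on both strands, was in 7 of the 14, against 41.6%. For a list of mitosis and chromosome segregation genes 39 promoters were found, with TTTGAA in 28 (71.8%), CCAAT in 28 (71.8%) and the hypoxia response core in 24 (61.5%). These are matches of letters, not measured binding sites.

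Mitosis and chromosome segregation had the highest median interaction of the 29 gene lists. Of 45 measured genes 45 had an interaction above 0, against 55.5% of all probes. Their median was 0.79, against 0.05 over all probes, and 0.72 after centring, 0.82 after quantile normalization and 0.88 without hypoxic neuroblast replicate 1. Adjusted over all probes only Nusap1 passed, and 19 genes had an unadjusted p under 0.05 (42.2%, against 6.62% of all probes). Of the 45 genes 23 rose in glomus cells and 42 in neuroblasts, against 9.37% and 18.4% of all probes, and none fell in either. Pbk, a mitotic kinase, rose by 2.10 in glomus cells and 4.20 in neuroblasts, with an interaction of 2.11 ± 0.46 that did not pass (adjusted p = 0.113). Without hypoxic neuroblast replicate 1 the interaction of Pbk was 2.51 and passed in limma (adjusted p = 0.00411). Tpx2, which activates Aurora A on the spindle, rose by 1.79 and 3.16 (interaction 1.37 ± 0.34, adjusted p = 0.237). The proliferation marker Mki67, named after its values were seen, had differences of 2.58 and 3.62 (interaction 1.04 ± 0.39, adjusted p = 0.622). The mean signal of the list was 4.08 to 4.34 in normoxic glomus cells, 3.92 to 4.12 in normoxic neuroblasts, 5.15 to 5.48 in hypoxic glomus cells and 5.69 to 6.26 in hypoxic neuroblasts. The hypoxic groups did not overlap. Only 7 of the 45 lay above the array median in both populations in normoxia.

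**Figure D3:**
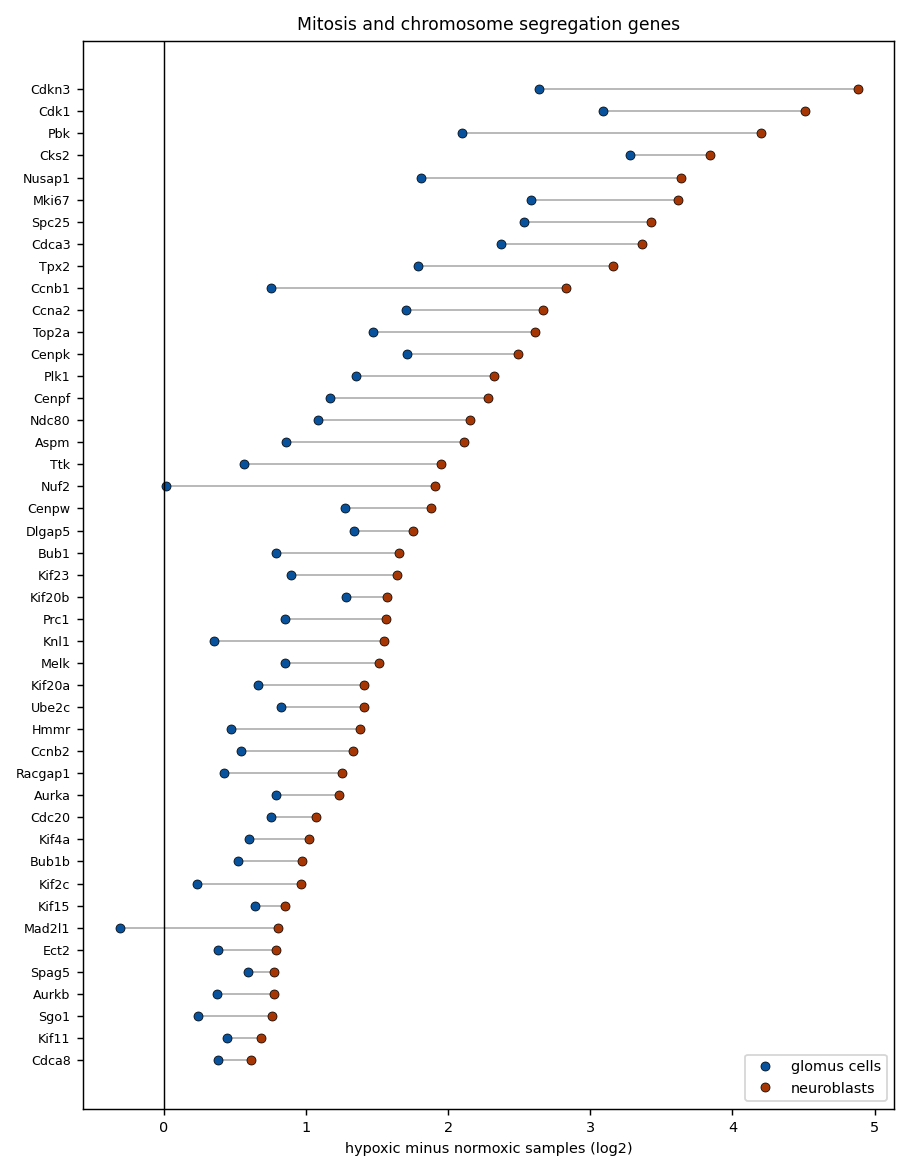
Hypoxia difference (x axis, log2) of the 45 mitosis and chromosome segregation genes in glomus cells (blue) and neuroblasts (brown), joined by a line for each gene. The neuroblast point lies to the right of the glomus cell point for 45 of 45 genes, with a median distance of 0.79.

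DNA replication genes leaned the same way by less. Of 34 genes 25 were above 0 (73.5%, against 55.5% of all probes), and the median interaction was 0.34. In limma 0 passed, and 8 had an unadjusted p under 0.05, all positive (23.5%, against 6.62% of all probes). Rrm2, a subunit of ribonucleotide reductase, rose by 3.54 in glomus cells and 4.80 in neuroblasts (interaction 1.26 ± 0.32, adjusted p = 0.246).

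Among Wnt receptors and feedback inhibitors Lgr5 passed alone of 22 genes. The median was 0.36, with 18 genes above 0 (81.8%, against 55.5% of all probes). At an unadjusted p under 0.05 there were 6, all positive (27.3%, against 6.62% of all probes). Axin2, a scaffold of the beta-catenin destruction complex and a feedback target of the pathway, fell by 1.08 in glomus cells and differed by -0.22 in neuroblasts (interaction 0.86 ± 0.21, adjusted p = 0.239). Nkd1, a feedback inhibitor, fell by 0.76 in glomus cells and differed by 0.44 in neuroblasts (interaction 1.20 ± 0.32, adjusted p = 0.284). All 3 genes were lower in neuroblasts than in glomus cells in normoxia, by -3.39, -1.47 and -1.87.

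Both neuronal lists had medians below 0. Of 31 axon guidance and synaptic adhesion genes Ntng1 and Sema3d passed, and the median was -0.27. At an unadjusted p under 0.05 there were 7 negative and 1 positive (25.8%, against 6.62% of all probes). The positive one was Ntm, a neuronal adhesion protein, which fell by 1.25 in glomus cells and differed by 0.26 in neuroblasts (interaction 1.52 ± 0.30, adjusted p = 0.0758). Of 25 immature neuron genes 0 passed in limma. At an unadjusted p under 0.05 there were 8 negative and 1 positive (36%, against 6.62% of all probes). The median of all 25 was -0.45, and -0.21 without hypoxic neuroblast replicate 1. Sox4, a transcription factor of immature neurons, fell by 0.87 in glomus cells and 2.22 in neuroblasts (interaction -1.35 ± 0.28, adjusted p = 0.0994), and Rbfox1, a neuronal splicing regulator, fell by 2.37 in neuroblasts and differed by -0.55 in glomus cells (interaction -1.82 ± 0.39, adjusted p = 0.105). In this list 17 genes fell and 3 rose in neuroblasts, and 8 fell and 2 rose in glomus cells. Downward calls were 13.7% and 9.5% of all probes, which include many dimmer ones. In normoxia 21 of the 25 genes lay above the array median in both populations. The list's median difference was -0.43 in glomus cells and -1.16 in neuroblasts. The brightest set of probes had -0.33 and -0.53, with a median interaction of -0.13. How much of the list's fall goes with brightness was not tested.

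Of 20 potassium channel genes Kcnd2 passed as negative and Kcnk3 as positive, with a median of 0.11 (0.05 to 0.21 when 1 array was left out). At an unadjusted p under 0.05 there were 3 positive and 2 negative genes (25%, against 6.62% of all probes). Kcnk9, which encodes TASK-3, the partner of TASK-1, fell in both populations, by 1.53 in glomus cells and 0.62 in neuroblasts (interaction 0.91 ± 0.31, adjusted p = 0.552). Of 26 sodium, calcium and TRP channel genes Scn9a passed alone, with a median of -0.16 (-0.23 to -0.07 when 1 array was left out) and 1 positive and 3 negative genes at an unadjusted p under 0.05 (15.4%). Of 31 transmitter and peptide receptor genes Sctr passed alone, with a median of -0.08 (-0.14 to -0.02 when 1 array was left out) and 3 positive and 8 negative genes at an unadjusted p under 0.05 (35.5%). Chrm1, a muscarinic acetylcholine receptor, fell by 1.21 in neuroblasts and differed by -0.02 in glomus cells (interaction -1.19 ± 0.26, adjusted p = 0.11).

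Immediate early genes, which respond to cell activity and to dissociation stress, had the lowest median, -0.71, with 20 of 22 genes below 0. In limma 0 passed, and 9 were negative at an unadjusted p under 0.05 (40.9%, against 6.62% of all probes). Fosb fell by 1.15 in glomus cells and 2.58 in neuroblasts (interaction -1.44 ± 0.38, adjusted p = 0.284). Nr4a2, an orphan nuclear receptor of this class, fell by 0.96 in neuroblasts and differed by 0.51 in glomus cells (interaction -1.47 ± 0.38, adjusted p = 0.261). The mean signal of the list was 7.87 to 8.22 in normoxic and 6.90 to 7.48 in hypoxic neuroblasts, without overlap. In glomus cells it was 7.60 to 8.16 and 7.33 to 8.0, with overlap. In normoxia all 22 genes lay above the array median in both populations. The list's median difference was -0.18 in glomus cells and -0.68 in neuroblasts. The brightest set of probes had -0.33 and -0.53, with a median interaction of -0.13. The part of brightness in this list's median was not tested.

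Of 11 oxygen sensing genes of the chemoreceptor programme Kcnk3 passed alone, and 3 were positive at an unadjusted p under 0.05 (27.3%, against 6.62% of all probes). Their median was 0.10, which ran from 0.02 without hypoxic neuroblast replicate 4 to 0.23 without replicate 1. Cox4i2 rose by 0.86 in glomus cells and 1.78 in neuroblasts (interaction 0.92 ± 0.24, adjusted p = 0.284), and Epas1, which encodes HIF-2 alpha, fell by 1.57 and 1.96 (interaction -0.39 ± 0.28, adjusted p = 0.859). Of 12 catecholamine genes 0 passed in limma, with 2 positive and 2 negative at an unadjusted p under 0.05 (33.3%, against 6.62%). Slc18a1 rose by 1.51 in neuroblasts and differed by 0.17 in glomus cells (interaction 1.34 ± 0.40, adjusted p = 0.415). Without hypoxic neuroblast replicate 1 the interaction of Slc18a1 was 1.75 and passed in limma (adjusted p = 0.0024). Dbh, which makes noradrenaline from dopamine, fell by 2.27 in neuroblasts and differed by -0.97 in glomus cells (interaction -1.30 ± 0.49, adjusted p = 0.631). Th had an interaction of -0.65 ± 0.55 (adjusted p = 0.886), with a 95% interval of -1.81 to 0.50, and its hypoxic neuroblast replicate 1 read 9.40 against 11.46 to 12.17 in the other replicates.

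In oxidative phosphorylation, glycolysis, hypoxia-inducible factor targets, ribosomal proteins, endoplasmic reticulum stress, granule and exocytosis, G protein signalling, sympathoadrenal transcription factors and HNK-1 synthesis 0 genes passed for the interaction in limma. Their medians ran from -0.23 to 0.11, beside 0.05 for all probes, and 17 of 213 list entries had an unadjusted p under 0.05 (7.98%, against 6.62% of all probes), 8 positive and 9 negative. The hypoxia-inducible factor targets had a median of -0.23, and 0.04 without hypoxic neuroblast replicate 1. Of 45 oxidative phosphorylation genes 30 rose and 0 fell in glomus cells, and 31 rose and 4 fell in neuroblasts, against upward calls for 9.37% and 18.4% of all probes. Their median interaction was 0.11, and 0.00 to 0.23 when 1 array was left out.

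**Figure D4:**
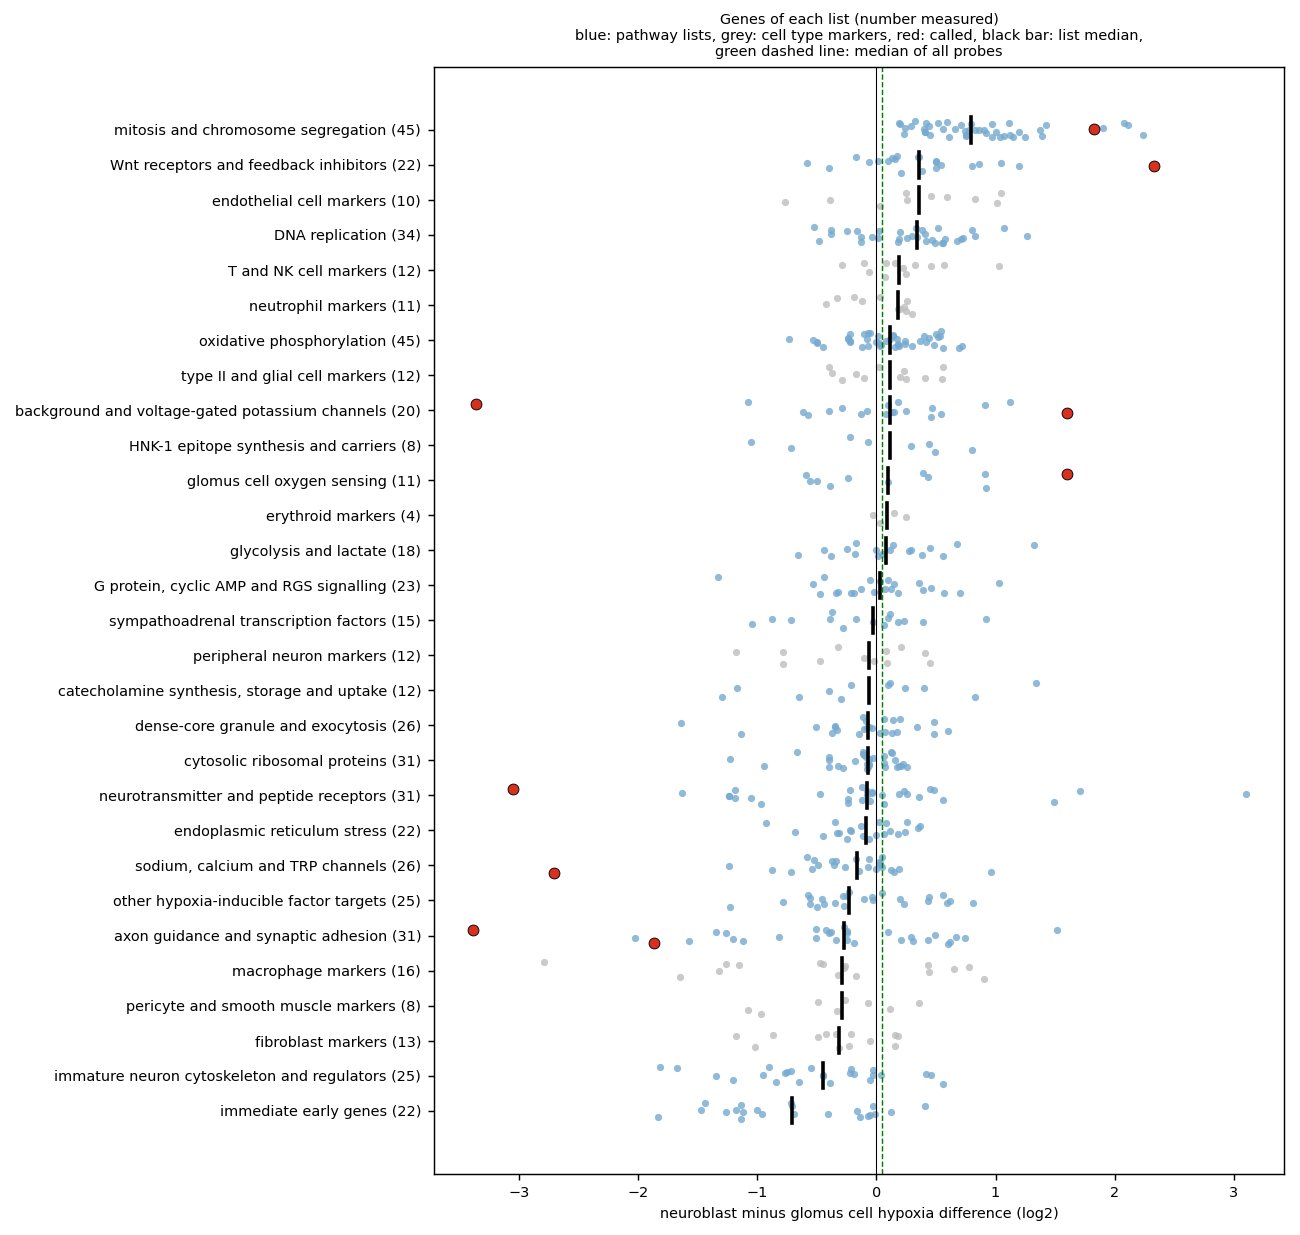
Interaction (x axis, log2) of each measured gene in 29 lists, with list medians as black bars, the median of all probes (0.05) as a dashed line and genes that passed as large red points. Mitosis has the highest median (0.79) and immediate early genes the lowest (-0.71).

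Markers of other cell types were followed because either sorted fraction can hold such cells. Of 9 lists none had a gene that passed for the interaction in limma, with 2 positive and 8 negative of 98 entries at an unadjusted p under 0.05 (10.2%, against 6.62% of all probes). Macrophage markers rose in glomus cells for 6 of 16 genes and in neuroblasts for 0 (limma), against 9.37% and 18.4% of all probes. Their interaction was above 0 for 5 genes and below 0 at an unadjusted p under 0.05 for 5 others, of which 3 are given here. Pf4 rose by 3.30 in glomus cells and differed by 0.50 in neuroblasts (interaction -2.79 ± 0.81, adjusted p = 0.379), Aif1 by 2.18 and 0.53, and the complement gene C1qc by 1.49 and 0.34. The mean signal of the macrophage list was 4.85 to 6.62 in normoxic and 6.01 to 6.70 in hypoxic glomus cells, and 4.08 to 4.55 and 4.49 to 5.12 in neuroblasts. Its median interaction was -0.29 and ranged from -0.78 without normoxic glomus replicate 1 to 0.00 without replicate 4. The endothelial list had a median of 0.36, which was 0.17 without normoxic glomus replicate 1 and 0.66 without replicate 2. Its mean signal was 4.99 to 6.69 and 5.73 to 6.63 in glomus cells and at 4.13 to 4.60 and 4.94 to 5.20 in neuroblasts. Of 10 measured endothelial genes 2 rose and 0 fell in each population (limma), against upward calls for 9.37% and 18.4% of all probes. The median difference of the list was 0.19 in glomus cells and 0.48 in neuroblasts. Cldn5, a tight junction gene of endothelium, rose by 1.77 in glomus cells and 2.60 in neuroblasts (interaction 0.83 ± 0.48, adjusted p = 0.811). Type II and glial markers had a median of 0.11. Their mean signal was 5.09 to 5.64 in normoxic and 5.61 to 5.90 in hypoxic glomus cells. In neuroblasts it was higher in each condition without overlap, at 5.83 to 6.24 and 6.17 to 6.60. Fibroblast markers had a median of -0.31, from -0.64 without normoxic neuroblast replicate 1 to 0.23 without replicate 2. Their mean signal was 5.03 to 6.22 and 5.15 to 5.72 in normoxic and hypoxic glomus cells. In neuroblasts it was 5.51 to 7.92 and 5.30 to 6.38, with overlap between the populations. Pericyte markers had a median of -0.29, from -0.51 without normoxic neuroblast replicate 3 to 0.01 without replicate 2. Their mean signal was 4.43 to 5.42 and 5.08 to 5.43 in normoxic and hypoxic glomus cells. In neuroblasts it was 5.12 to 6.30 and 5.23 to 5.94, also with overlap. T and NK cell, neutrophil, erythroid and peripheral neuron markers had medians of 0.19, 0.18, 0.09 and -0.06. Leaving out 1 array turned the sign of the median for the type II and glial (-0.04), neutrophil (-0.03), erythroid (-0.04) and peripheral neuron (0.01) lists. No marker is listed at 0, as the lowest value in the table is 0.87. The part of these cells in the interaction was not tested.

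The same values can be read as a difference between the populations in each condition. These comparisons use the same 16 arrays as the interaction, so they are set side by side and do not add evidence. Between neuroblasts and glomus cells 555 probes passed in normoxia (1.82%) and 86 in hypoxia (0.283%). Of the 24 probes called for the interaction 21 passed between the populations in normoxia and 4 in hypoxia. Ntng1 was 3.18 higher in neuroblasts in normoxia and -0.21 in hypoxia, and Kcnd2 3.99 and 0.64. Lgr5 differed by -3.39 in normoxia and by -1.06 in hypoxia (adjusted p = 0.0904), and Kcnk3 by -1.74 and -0.14. The 4 that passed in hypoxia were Scn9a (1.49) and Sidt1 (1.16), reduced from 4.20 and 3.13, and Nusap1 (1.5) and Depdc1 (2.16), which had differed by -0.33 and -0.19 in normoxia.

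**Figure D5:**
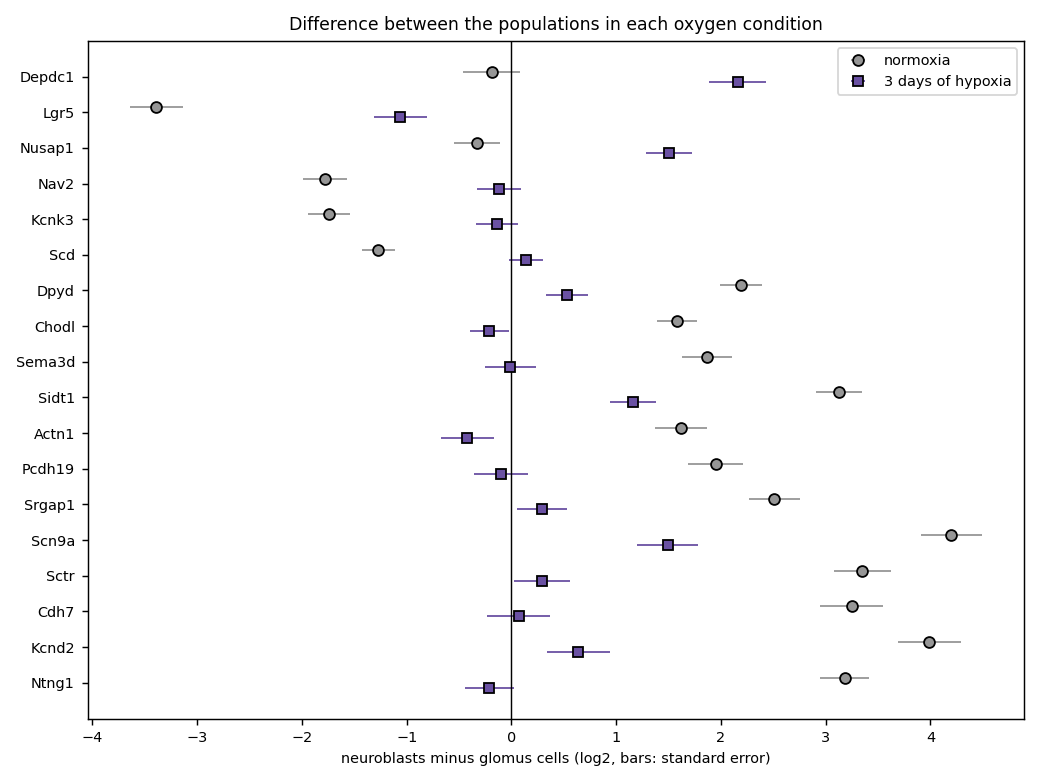
Difference between neuroblasts and glomus cells (x axis, log2, bars are standard errors) for the 18 named genes in normoxia (grey circles) and after 3 days of hypoxia (purple squares). The differences lie nearer to 0 in hypoxia for all genes but Nusap1 and Depdc1, which move from -0.33 and -0.19 to 1.5 and 2.16.

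The remaining 6 probes with a call could not be tied to 1 gene. The 4 negative ones had interactions of -3.40 (probe 17731722, adjusted p = 0.00052), -3.20, -2.81 and -1.64. Probe 17872942, at -2.81 ± 0.50, passed in opposite directions, with a rise of 1.26 in glomus cells and a fall of 1.55 in neuroblasts. The 2 positive ones were at 3.09 (probe 17659944, adjusted p = 0.0463) and 1.96. Of the 18 named genes each had 1 probe that names it alone, so no second probe bears on its value.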

How the data were processed

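Sorted carotid body cells of 16 samples, in 4 groups of 4 as the titles name them, were measured on an Affymetrix rat array. The deposited values run from 0.87 to 13.33 and were taken as log2, from that range and from the tool named in the submitters' processing notes, Transcriptome Analysis Console. For its version, background correction, normalization and annotation the entry is: not given in the sources used here.

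All 30429 probes were used without a filter or further normalization. The probe annotation names 1 gene for 18511 probes, several for 575 and none for 11343; a gene with several probes was read from its brightest probe on average over the 16 arrays. One mean per group was fitted with limma 3.58.1 (lmFit and eBayes, 12 residual degrees of freedom) in R 4.3.3 and checked on simulated data. Tests were two-sided with Benjamini-Hochberg adjustment over all probes, and called or passed means an adjusted p under 0.05. Figures used Python 3.11.15 and matplotlib 3.10.9. The 29 gene lists (20 of pathways, 9 of cell types) were described by counts and medians without a test. Members and lists were chosen with earlier results of these data known. Named genes were up to 12 called genes per direction, over all probes and among those above the array median in both populations, plus Lgr5, Kcnk3, Nusap1, Scn9a and Ntng1, the 3 genes of smallest p in each list, Th, Epas1 and B3gat1; not all are printed.

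Alternative settings were median centring of the arrays, quantile normalization, dropping the dimmest 25% or 50% of probes, a robust variance with intensity trend, array weights, the replicate number as a block, an adjusted p under 0.01, a 2-fold minimum, the mean over all arrays as class limit, and leaving out each array. Promoter letters came from the RefSeq table of build GRCr8.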

Additional observations from a re-analysis of the deposited data

Results flagged for a closer look

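The test of the difference between the populations' responses passed for 24 probes. The named genes were Ntng1 (-3.39), Kcnd2 (-3.36), Cdh7 (-3.18), Sctr (-3.05), Scn9a (-2.71), Srgap1 (-2.22), Pcdh19 (-2.05), Actn1 (-2.04), Sidt1 (-1.97), Sema3d (-1.87), Chodl (-1.80), Dpyd (-1.66), Scd (1.41), Kcnk3 (1.60), Nav2 (1.66), Nusap1 (1.83), Lgr5 (2.33) and Depdc1 (2.35). The others were probes 17731722 (-3.40), 17785885 (-3.20), 17872942 (-2.81), 17721847 (-1.64) and 17659944 (3.09), with no gene named, and 17719497 (1.96), with several.

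A single sample lay far from the other 3 of its group in 6 of 116 groups checked with Dixon's test, and chance alone marks about 1 in 20. In normoxic glomus cells these were probe 17731722 in replicate 1 (2.14 against 2.50 to 2.56), Kcnd2 in replicate 3 (3.61 against 4.45 to 4.52) and Nav2 in replicate 1 (5.57 against 6.26 to 6.33). In normoxic neuroblasts it was Cdh7 in replicate 1 (6.57 against 7.78 to 7.88), in hypoxic glomus cells Sema3d in replicate 2 (3.30 against 3.71 to 3.77), and in hypoxic neuroblasts Depdc1 in replicate 4 (6.11 against 5.61 to 5.69).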

How the results depend on the processing

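The count of 24 probes with different responses became 11 after centring, 83 with array weights, which gave hypoxic neuroblast replicate 1 the lowest weight, and 5 at an adjusted p under 0.01. It was 11 to 35 when 1 array was left out. Among probes above the array median in both populations the count of 10 became 3 after centring, 19 after quantile normalization, 50 with array weights, 17 with the mean over all arrays as class limit and 0 at an adjusted p under 0.01, and 4 to 21 when 1 array was left out. The 5744 glomus cell calls became 9490 with array weights, 3218 at an adjusted p under 0.01 and 2759 with a 2-fold minimum, and 4096 to 7232 when 1 array was left out. The 9755 neuroblast calls became 5195 at an adjusted p under 0.01 and 4251 with a 2-fold minimum, and 7404 to 10826 when 1 array was left out. Same-numbered replicates correlated between -0.1 and 0.2 in their deviations from the group means, so the numbers were not taken as pairs; with the replicate number as a block 19 probes passed, 16 of them among the 24. The calls of Ntng1, Kcnd2, Cdh7 and Sctr held under every alternative that kept their probes, and none of the 18 named genes with a call changed direction. Signs turned for 2 erythroid markers near 0: Slc4a1, at -0.03, ran from -0.20 to 0.08 and Ahsp, at 0.15, from -0.15 to 0.36 when 1 array was left out. Slc4a1 was 0.03 without normoxic glomus replicate 2, 0.01 without normoxic neuroblast replicate 1, 0.06 without hypoxic glomus replicate 1, and 0.02 and 0.08 without hypoxic neuroblast replicates 2 and 4, and Ahsp was -0.11 with array weights and -0.15 without hypoxic neuroblast replicate 1. The causes were not tested. Arrays without detection calls cannot show at which level a dim probe stops measuring.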
